A study of Mus musculus with 2 samples.

Results

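The cadherin and protocadherin genes described here were 92 of the 31053 genes in the count tables. The rule used symbols and no measured value, although this family was picked with earlier results of these data known. It took every Cdh gene with a number, every Pcdh gene with a number, and every gene of the Pcdha, Pcdhb and Pcdhg clusters. The 92 genes carried 91 symbols, because Pcdha11 stood under 2 Ensembl identifiers. They comprised 13 type II and 5 type I classical cadherins, 5 other cadherins, 4 delta-1, 5 delta-2 and 3 other non-clustered protocadherins, and 14 alpha, 22 beta and 21 gamma clustered protocadherins. In neuronal nuclei with a cortical subclass label, 67 of the 92 reached at least 20 unique molecular identifiers (UMIs, each a counted RNA molecule) over both libraries. Cdh15, Cdh17 and Pcdhb1 had none, a count that allows up to 3 UMIs, and the other 22 stayed below 20.

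Classical cadherins are calcium-dependent adhesion molecules that bind cadherins on a facing cell and attach to the actin cytoskeleton through catenins. Type II members are known in the cortex for expression that is restricted to particular layers and neuron classes, whereas type I members such as Cdh2 (N-cadherin) are broadly expressed at synapses. Delta protocadherins adhere more weakly and also signal inside the cell. The clustered protocadherins come from gene arrays in which a neuron uses a few promoters, chosen largely at random, and the resulting mixture of surface proteins serves in self-recognition of its branches.

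The nuclei came from adult mice (over 7 weeks old) of the strain Atf3-CreER::Sun1-sfGFP, heterozygous for Atf3-CreER and for the SUN-SfGFP reporter, all subjected to mild traumatic brain injury (mTBI). Tamoxifen-dependent Cre was made under the control of Atf3, an injury-induced transcription factor, so a nucleus carried the green reporter only if its cell had used Atf3 around the doses at 4 and 5 days post injury (dpi). Ipsilateral cortex was collected at 7 dpi, and GFP+/DRAQ5+ nuclei of 4 pooled animals entered each of 2 single-nucleus libraries, which by title came from male (M) and female (F) mice. Nuclei of uninjured animals were not analysed here, so every comparison is between classes of labeled nuclei within injured cortex. The label fields of the female library also gave the sex as male, and sex, pool of animals and sequencing depth cannot be told apart between the libraries.

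The male library held 11007366 UMIs and the female library 23202343. Neuronal nuclei with a subclass numbered 1378 and 1202, with medians of 3591 and 8501.5 UMIs, and Micro-PVM nuclei (microglia and perivascular macrophages) 1690 and 2338, with medians of 1298.5 and 3012.5. Of 8171 labeled nuclei, 1 barcode was shared by the libraries. UMIs were summed per library and label, and each level is a CPM value, meaning that every sum was scaled to the same total, with the male library first. The sums were fitted together with edgeR's quasi-likelihood test, and an adjusted p is a Benjamini-Hochberg value over all genes tested, called below 0.05. The 2 libraries are the only replicates and each is a pool. The main fit had no term for the library and treated the sums of a library as independent. Its spread was the difference between the 2 pools within each label, shared over labels and genes. Small p-values thus rest on no more than these 2 pools. The authors assigned the labels by mapping each nuclear transcriptome to a motor cortex atlas, and the neuronal cluster called Unknown is one they left without a cortical subclass. The members' own UMIs entered those assignments, so the tests between labels are not independent of the labels.

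The labels were checked against their markers. Among neuronal labels Cux2 was highest in L2/3 IT CTX-1 (541 and 491 CPM), Rorb in L4/5 IT (370 and 355 CPM) and Foxp2 in L6 CT nuclei (358 and 287 CPM), and Gad1 and Gad2 marked Pvalb, Sst and Vip nuclei. The markers looked for in L5 ET nuclei were weak. Fezf2 was at 3.06 and 5.78 CPM there, and Bcl11b, at 61.9 and 42.5 CPM, was lower than in L6 CT (110 and 117 CPM) and Unknown (356 and 335 CPM). Pvalb and Sst mRNA were near 0 also in the nuclei bearing those names, at 1.58 and 0.516 CPM of Pvalb in Pvalb nuclei and 3.77 and 0 CPM of Sst in Sst nuclei. The microglial markers C1qa, C1qb, C1qc, Csf1r, P2ry12 and Cx3cr1 summed to 58.2 and 35.1 CPM in annotated neurons against 1930.0 and 1429 CPM in Micro-PVM nuclei. Over the neuronal labels the sum ranged from 22.2 to 137 CPM, highest in L6 IT in the male and in L2/3 IT CTX-2 in the female library. C1qa was at 0 in 3 of the 20 sums of neuronal labels. Beside the comparisons, counts are also given after subtraction of a free-RNA profile taken from barcodes without a nucleus and sized on the planned list of microglial markers, and again sized on the 6 markers named here alone (chosen after seeing the data).

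Neuronal subclasses differed in most of the tested cadherins. Of the 92 members, 29 had enough UMIs to be tested, and 22 of these differed among the 8 subclasses (Unknown left out), beside 36.7% of all genes tested. All 11 tested type II cadherins, both tested type I cadherins and 2 of 2 other cadherins were among them. So were 3 of 4 delta-1 and 3 of 4 delta-2 protocadherins and Pcdh15. None of the 5 tested clustered protocadherins passed (lowest adjusted p = 0.263, Pcdhga12), and Pcdh8 and Pcdh1 did not pass either (adjusted p = 0.11 and 0.549), though both passed with the library as a replicate block. After free-RNA subtraction 10 of the 22 were called with the planned list, with Cdh2, Cdh7, Cdh10, Cdh11, Cdh19, Cdh23, Pcdh7, Pcdh9, Pcdh10, Pcdh15, Pcdh17 and Pcdh19 lost, and 21 with the 6 named markers, Pcdh19 lost. A tested gene had to be well counted in some label, so these counts describe the well-counted members and not the whole family.

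**Figure D1:**
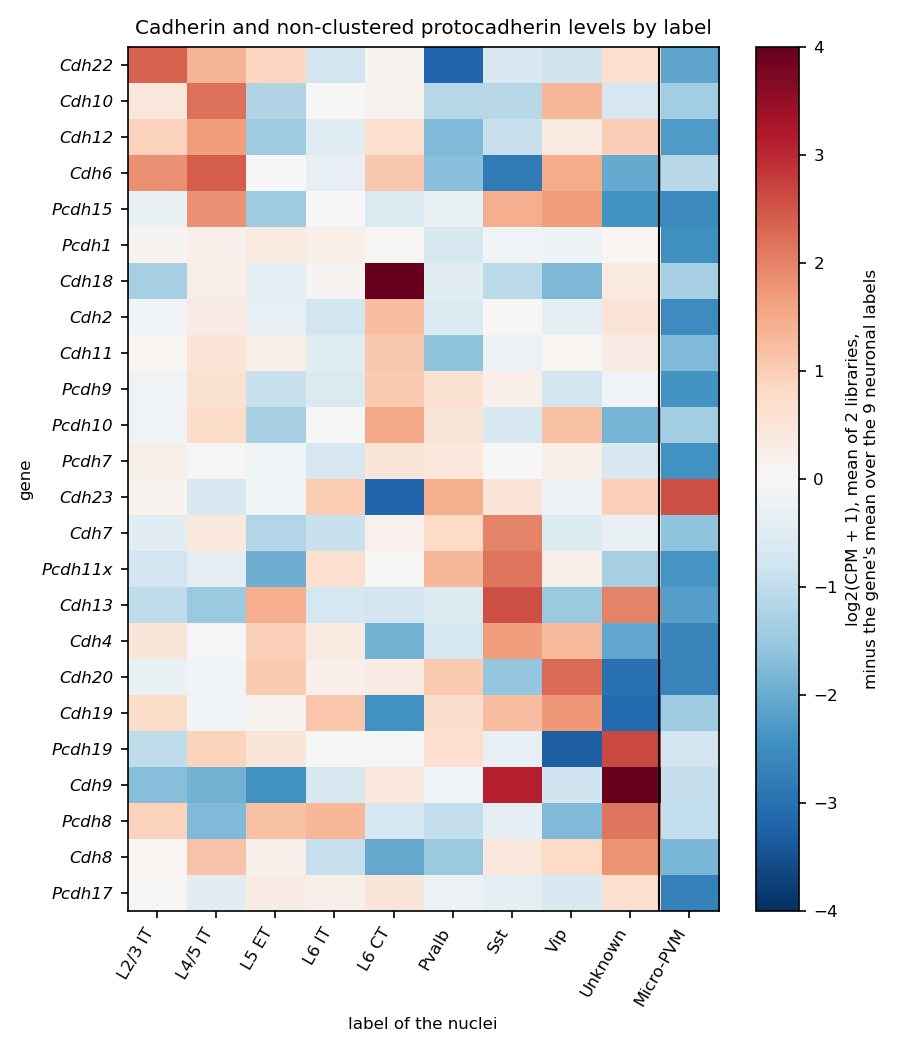
Level of 24 cadherin and non-clustered protocadherin genes (rows) in 8 neuronal subclasses, Unknown and Micro-PVM nuclei (columns), as log2(CPM + 1) averaged over the 2 libraries minus each gene's mean over the 9 neuronal labels. The color scale ends at 4 in both directions. Cdh18 stands out in L6 CT, Cdh9 in Unknown and Sst, and most genes are lowest in Micro-PVM nuclei, Cdh23 excepted.

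The type II cadherins did not all share a leading label, and their orders of labels were not compared by a test. Cdh6, Cdh10 and Cdh12 shared L4/5 IT, and the leading labels of Cdh11 and Cdh19 differed between the libraries. Of the 29 tested members, 18 had the same highest label in both libraries (Unknown counted as a label), and in 15 of them the lower value of that label exceeded every value of the other labels. Such counts were not made over all genes, so they cannot be read as a trait of the members. The 15 include Pcdhga12, which was not called among subclasses. Its lower value in L6 CT was 22.44 CPM, beside up to 22.22 CPM in Vip. Cdh18 was the clearest case, at 1801 and 1364 CPM in L6 CT nuclei, and its next label, Unknown, held 128 and 89.6 CPM. The adjusted p for Cdh18 among subclasses was 4.37e-14, and its highest subclass stood 68.0 times above its lowest, Vip, at 24.3 and 22.2 CPM. Cdh12 was highest in L4/5 IT, at 627 and 714 CPM, and lowest in Pvalb nuclei, at 55.2 and 65.0 CPM. Both of these genes lie on chromosome 15, in a run of type II genes.

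Cdh22 reached 161 and 124 CPM in L2/3 IT and fell off over L4/5 IT (73.5 and 69.0 CPM) and L5 ET (55.7 and 42.8 CPM) to 3.15 and 1.03 CPM in Pvalb nuclei. Those 4 labels did not overlap between the libraries. Cdh6, known from early cortical patterning, was highest in L4/5 IT at 69.7 and 59.1 CPM, above L2/3 IT at 40.6 and 43.1 CPM, and it was almost missing from Sst nuclei at 0 and 1.39 CPM. Cdh10 followed the same leading label, L4/5 IT, at 246 and 215 CPM, with L5 ET lowest at 13.5 and 28.9 CPM. Its Vip values of 195 and 61.1 CPM lay far apart, and the order of Vip among the other labels is not fixed by these libraries.

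Among inhibitory labels the leading genes differed. Cdh20 was highest in Vip nuclei at 982 and 1139 CPM, ahead of Pvalb at 508 and 399 CPM and L5 ET at 499.8 and 409 CPM, neighbors in that order whose values overlap. Cdh13, a cadherin anchored to the membrane by a lipid and without an inner domain, was highest in Sst at 1148 and 999 CPM. Cdh9, known as a matching cue between hippocampal synaptic partners, stood at 290.2 and 267 CPM in Sst and at 57.3 CPM or less in every other subclass. Cdh7 was also highest in Sst, at 56.5 and 64.7 CPM against 36.3 and 16.0 CPM in Pvalb. Vip rested on 34 and 27 nuclei and L6 CT on 41 and 44, the fewest of the neuronal labels.

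**Figure D2:**
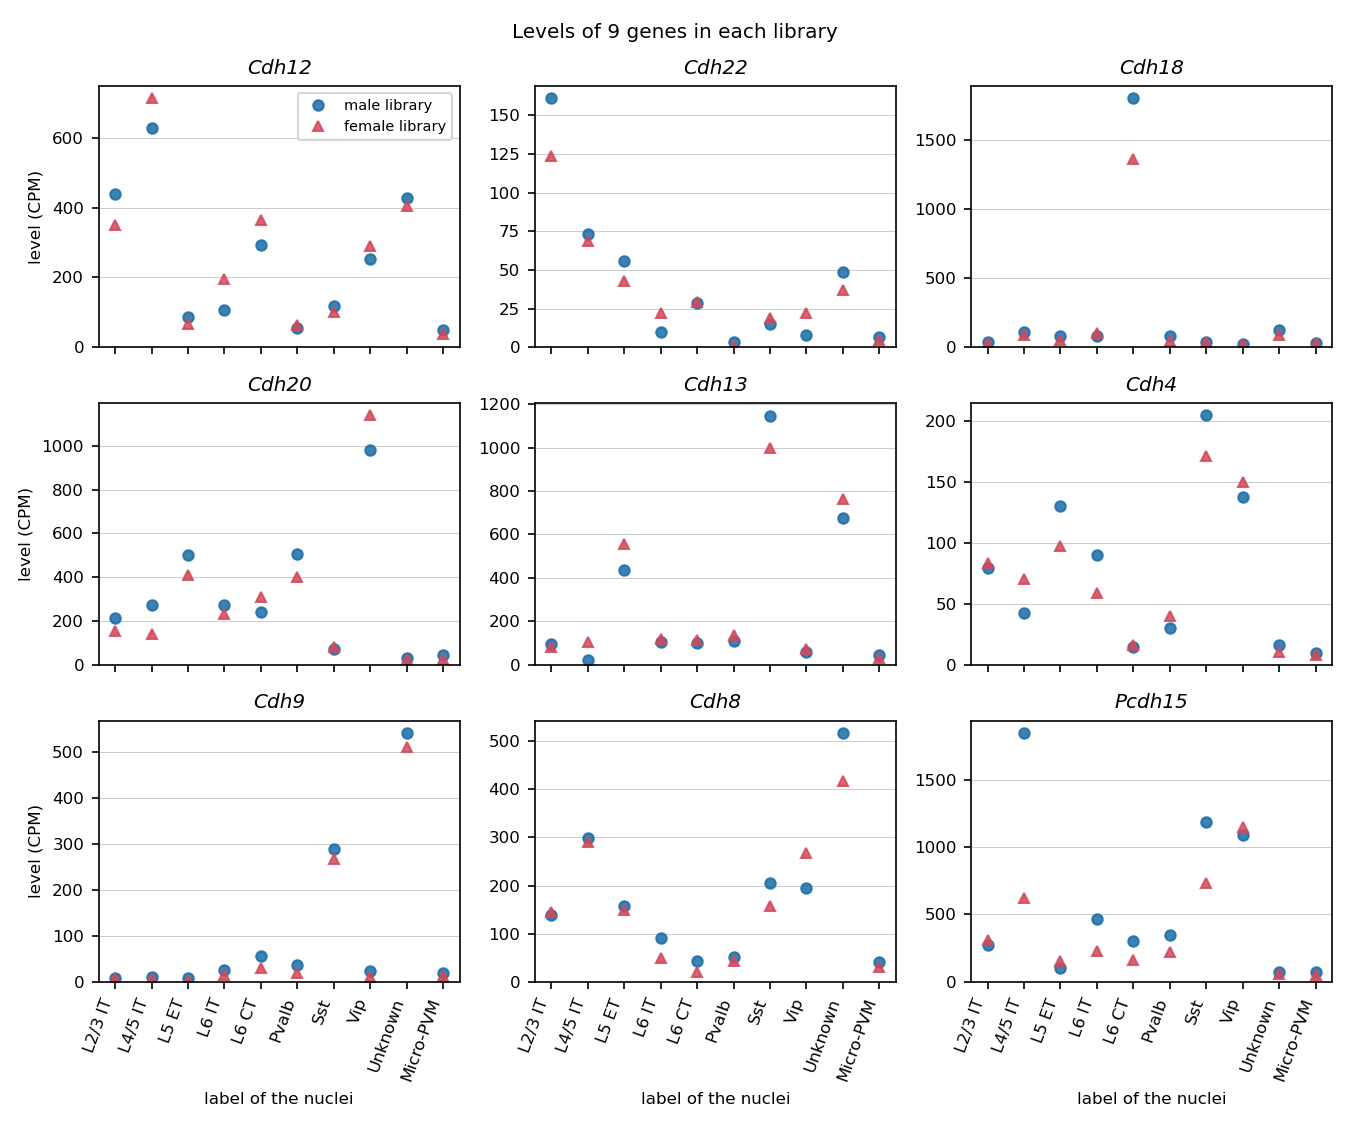
Level (CPM, linear axes from 0) of 9 members in each label, male library as circles and female library as triangles. The libraries sit close together at most labels, with L4/5 IT in Pcdh15 (1848 and 622 CPM) as the widest gap.

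The shares of nuclei followed the levels. At least 1 Cdh18 UMI was found in 87.8% of male L6 CT nuclei (exact binomial 95% interval 73.8 to 95.9) and in 93.2% of female ones (81.3 to 98.6), against 4.56% and 10.4% of Micro-PVM nuclei. After each nucleus was thinned to 2300 UMIs, with shallower nuclei left out, the Cdh18 shares in L6 CT were 82.9% and 81.8%, beside 4.64% and 7.34% in Micro-PVM. The Micro-PVM share serves as the level that free RNA and shallow nuclei give, at the lower depths stated above. Cdh13 was detected in 79.3% and 79.0% of Sst nuclei (thinned 66.7% and 67.1%), against 6.21% and 10.0% of Micro-PVM nuclei. Cdh22 in Pvalb nuclei, at 1.68% (0.204 to 5.94) and 1.33% (0.162 to 4.73), was at the Micro-PVM share of 0.947% and 1.54%, which is background. These intervals cover counting error only.

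Levels between genes can be set side by side only per length, since long genes collect more intronic reads in nuclei. Per 100 kb of gene span, annotated neurons held 282 and 249 CPM of Pcdh9 and 179 and 251 CPM of Pcdh1, both delta-1 protocadherins, so their order differed between the libraries. Pcdh7 followed at 169 and 158 CPM per 100 kb, Pcdh17 at 167 and 162, Cdh20 at 149 and 127, and the short beta gene Pcdhb17 at 133 and 189, values that overlap among neighbors. Cdh2 was at 93.0 and 85.8 CPM per 100 kb and Cdh8 at 39.3 and 33.6 CPM per 100 kb. Pcdh15, which spans 1550 kb and forms tip links of hair cells together with Cdh23, was at 33.9 and 22.2 CPM per 100 kb, and Cdh23 at 3.53 and 1.75 CPM per 100 kb. Cdh12 shared 46.5% of its span with a gene on the same strand, so its level is uncertain to that extent. Pcdhb17 shared 100% of its 4.66 kb and rested on 139 UMIs, so its place in this order is uncertain. In UMIs, Pcdh9 alone gave 40309 of the 55689 of the delta-1 group.

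The delta protocadherins and type I cadherins held both narrow and wide ranges. Pcdh9 ranged 3.79-fold between its highest and lowest subclass, from 5580 and 4008 CPM in L6 CT, and Pcdh7 ranged 2.20-fold. Cdh2, which organizes the adhesion of synaptic membranes, ranged 3.94-fold and was highest in L6 CT at 564 and 433 CPM. Cdh4 (R-cadherin) ranged 12.5-fold, with 205 and 171 CPM in Sst and 14.3 and 15.7 CPM in L6 CT. Pcdh11x, on the X chromosome, ranged 17.7-fold and was highest in Sst, at 269 and 621 CPM in libraries that lay far apart. Pcdh10 led in L6 CT at 71.7 and 69.6 CPM.

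L5 ET nuclei, the extratelencephalic projection neurons of layer 5, differed from L2/3 IT nuclei in 12 of the 29 tested members. Of these, 4 were higher in L5 ET and 8 lower, beside 6.28% and 6.73% of all genes tested, and the members' median difference was -0.35 on the log2 scale against -0.02 over all genes. By group, 2 type II cadherins were higher and 4 lower of 11, and the delta-1 group had 2 lower of 4. Cdh13 stood at 438 and 555 CPM in L5 ET, whereas L2/3 IT nuclei held 95.4 and 80.9 CPM (log2 fold change 2.55 ± 0.34, SE, adjusted p = 1.42e-05). Cdh20 had 499.8 and 409 CPM against 215 and 152 CPM (1.35 ± 0.23, adjusted p = 0.000206). In both genes every L5 ET value lay above every L2/3 IT value, which adds nothing to the calls.

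The type II cadherins lower in L5 ET were Cdh12, Cdh6, Cdh10 and Cdh22. Cdh12 reached 87.0 and 66.8 CPM in L5 ET, whereas L2/3 IT nuclei held 437 and 350.3 CPM (log2 fold change -2.32 ± 0.24, adjusted p = 5.77e-07). Cdh6 had 11.02 and 11.3 CPM against 40.6 and 43.1 CPM (-1.85 ± 0.39, adjusted p = 0.00224), and Cdh22, at the levels given above, differed by -1.50 ± 0.22 (adjusted p = 4.31e-05). Cdh10 differed by -1.53 ± 0.39 (adjusted p = 0.00969). The same direction in both libraries was a condition for naming these genes, so it adds no support.

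Among the protocadherins lower in L5 ET, Pcdh10 (12.3 and 6.07 against 17.3 and 25.6 CPM) differed by -1.31 ± 0.33 (adjusted p = 0.00967). Pcdh11x, Pcdh15 and Pcdh9 differed by -1.21, -1.11 and -0.70 (adjusted p = 0.0417, 0.0439 and 0.00703). Cdh18 and Pcdh19, an X-linked gene mutated in an inherited epilepsy, were higher in L5 ET by 1.01 ± 0.24 and 1.54 ± 0.50 (adjusted p = 0.0061 and 0.0462). Pcdh19 is a small signal, with 18.4 and 6.65 CPM in L5 ET and 3.25 and 4.47 CPM in L2/3 IT. With L2/3 IT CTX-1 alone in place of both L2/3 IT labels, and also by DESeq2, the calls of Pcdh11x, Pcdh15 and Pcdh19 ended, and DESeq2 ended that of Cdh10 too. Those of Pcdh15 and Pcdh19 ended too within the nuclei limits of the study's methods and with library totals as the scale. With L5 ET and L2/3 IT taken from the female library alone, 2 members were higher and 3 lower, and from the male library alone 3 and 3. Free-RNA subtraction sized on the planned list ended all 12 calls, whereas sized on the 6 named markers it kept all 12. A label left with 1 library was assumed to vary like the others in that fit.

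**Figure D3:**
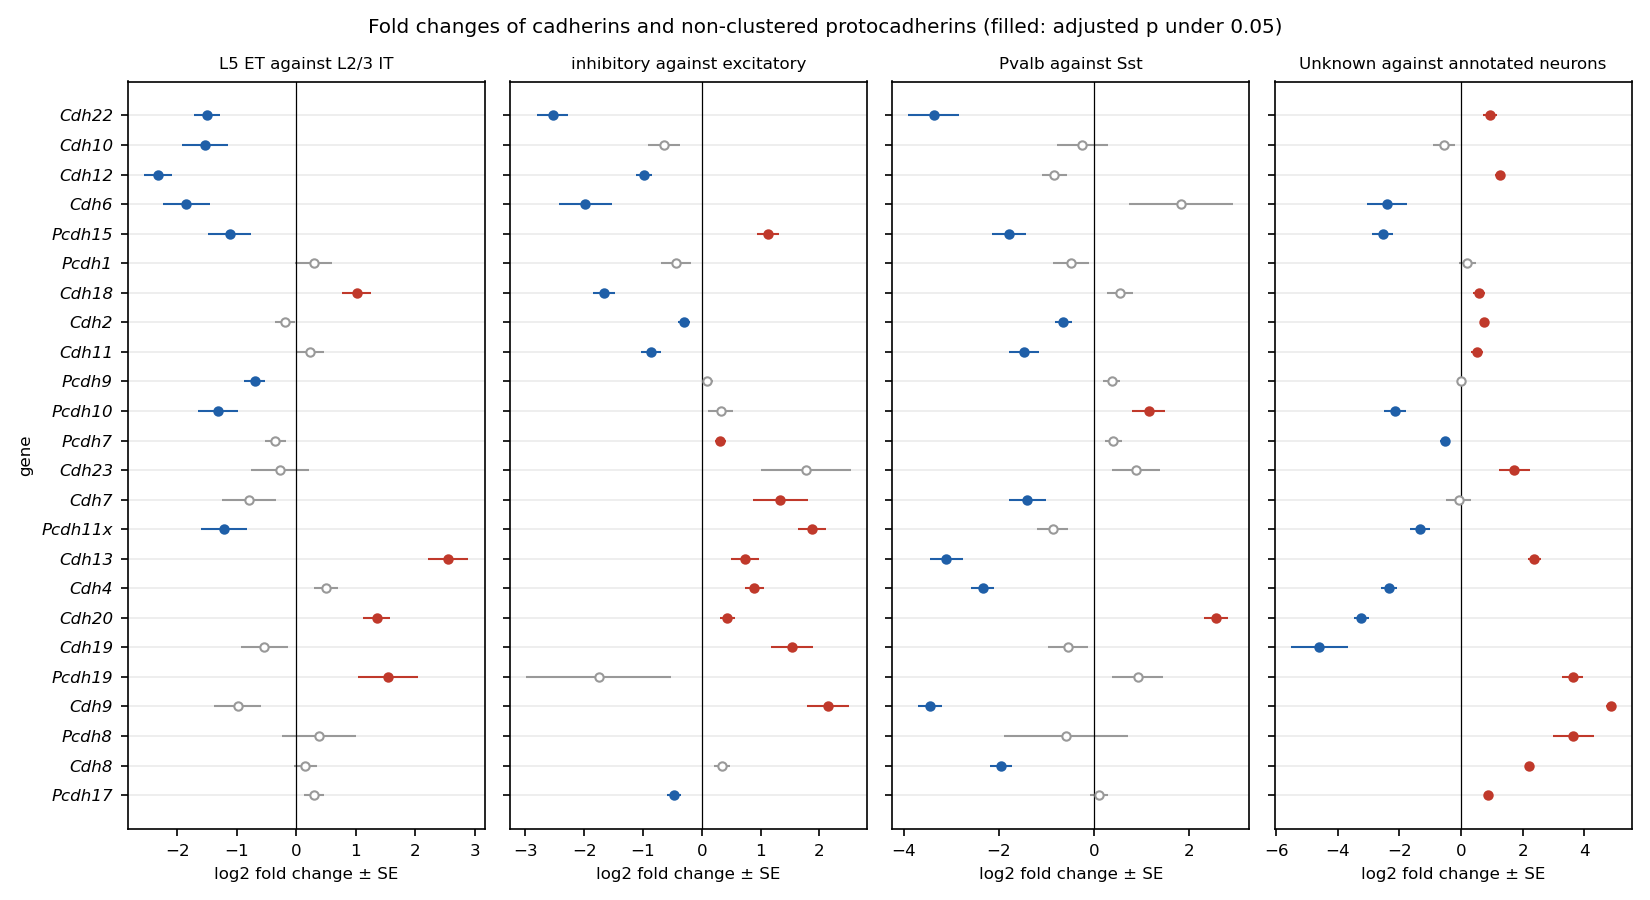
Log2 fold change ± SE (horizontal axes) of 24 members in 4 comparisons of neuronal labels, filled where the adjusted p is under 0.05, red where higher and blue where lower in the first-named label. Pcdh8 is not drawn for inhibitory against excitatory nuclei, where it has no usable error. The widest spread is in Unknown against annotated neurons, from Cdh19 to Cdh9.

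Inhibitory nuclei differed from excitatory nuclei in 16 of the 29 tested members, as the mean over Pvalb, Sst and Vip against the mean over the 5 excitatory labels. Of these, 9 were higher in inhibitory nuclei, beside 10.7% of all genes, and 7 lower, beside 11.9%. The members' median was 0.09 (all genes -0.06). With library totals alone as the scale the split was 6 higher and 7 lower. The type II group went both ways, with 4 higher and 5 lower of 11, and 2 of 4 delta-1 protocadherins were higher.

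Cdh9 had the largest increase in inhibitory nuclei (2.15 ± 0.36, adjusted p = 0.000114), with summed levels of 165 and 120 CPM against 11.6 and 7.08 CPM in excitatory nuclei. That sum was mostly Sst, as the levels by label above show. Pcdh11x had 234 and 408 CPM against 57.2 and 49.8 CPM (1.87 ± 0.23, adjusted p = 2.34e-06), and Pcdh15 had 834 and 475 CPM against 405 and 256 CPM (1.12 ± 0.19, adjusted p = 0.000108). In these genes the pooled sums did not overlap. Single labels did for Pcdh15, whose highest male value was in the excitatory L4/5 IT (1848 and 622 CPM), while Pvalb held 345 and 220.4 CPM. Cdh19, Cdh7 and Cdh4 differed by 1.53, 1.34 and 0.89 (adjusted p = 0.00281, 0.0422 and 0.00023). Cdh13, Cdh20 and Pcdh7 differed by 0.74, 0.43 and 0.31 (adjusted p = 0.0284, 0.0149 and 0.0202). For Cdh13 only Sst was high among the inhibitory labels. The other cadherins summed, Cdh13 included, held 144 and 149 CPM in Pvalb and 64.9 and 77.8 CPM in Vip. The same sum was 448 and 560 CPM in the excitatory L5 ET. The Cdh13 call ended without the L6 IT label and with either free-RNA subtraction. For Cdh20 the summed levels were nearly the same, 321 and 307 CPM against 331 and 283 CPM, and the contrast gives each label, Vip included, equal weight.

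The genes lower in inhibitory nuclei were led by Cdh22, with 9.66 and 9.28 CPM against 98.6 and 69.9 CPM (-2.53 ± 0.27, adjusted p = 1.79e-07). Cdh6 differed by -1.98 ± 0.45 (adjusted p = 0.00227), with 1.93 and 5.34 CPM in inhibitory nuclei. Cdh18 and Cdh12 differed by -1.66 ± 0.19 and -0.98 ± 0.14 (adjusted p = 4.65e-07 and 1.15e-05). Cdh11, a type II cadherin, Pcdh17, a delta-2 protocadherin of synaptic terminals, and Cdh2 differed by -0.86, -0.47 and -0.30 (adjusted p = 0.00082, 0.00382 and 0.043). Cdh22, Cdh6, Cdh18 and Cdh12 each had their highest subclass among the excitatory labels. After free-RNA subtraction sized on the planned list 1 member was called, Pcdh11x, and sized on the 6 named markers 5 higher and 7 lower. With inhibitory labels from 1 library the counts were 5 higher and 6 lower (female) or 5 and 4 (male).

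Pvalb and Sst nuclei differed in 11 tested members, of which 2 were higher in Pvalb, beside 3.79% of all genes, and 9 lower, beside 3.58%. The members' median was -0.54 against -0.01 over all genes. Cdh20 was higher in Pvalb, with 508 and 399 CPM against 69.1 and 80.0 CPM in Sst (2.56 ± 0.25, adjusted p = 2.85e-07). Pcdh10 was the other, at 31.5 and 36.7 CPM against 13.8 and 16.7 CPM (1.15 ± 0.35, adjusted p = 0.0462). The values of these 2 genes and of the 9 below did not overlap between the labels. They were picked as called from these same values, so this adds no support.

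Of the genes higher in Sst, Cdh9 had 36.3 and 20.1 CPM in Pvalb (-3.44 ± 0.25, adjusted p = 4.77e-09) and Cdh13 had 109 and 136 CPM (-3.11 ± 0.35, adjusted p = 2.04e-06). Cdh22 was low in both, at 15.1 and 18.8 CPM in Sst (-3.36 ± 0.54, adjusted p = 0.000158). Cdh4 had 30.0 and 40.3 CPM in Pvalb (-2.33 ± 0.24, adjusted p = 6.41e-07), and Cdh8, a type II cadherin of sensory circuits, 52.0 and 42.8 CPM against 205 and 158 CPM (-1.95 ± 0.23, adjusted p = 2.96e-06). Both tested type I cadherins were thus lower in Pvalb, Cdh2 by less (-0.65 ± 0.18, adjusted p = 0.0254). Pcdh15, Cdh11 and Cdh7 differed by -1.78, -1.47 and -1.40 (adjusted p = 0.00234, 0.00287 and 0.024). With both labels from the male library alone 1 member was higher and 4 were lower, and from the female library 1 and 8. Free-RNA subtraction left 1 higher and 1 lower (Cdh20 and Cdh22) with the planned list, and 1 and 8 with the 6 named markers.

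The Unknown nuclei, 225 and 170 in number, differed from the annotated neurons in 20 of the 29 tested members. They held neuronal markers (Rbfox3 at 1539 and 1712 CPM against 502 and 464 CPM in annotated neurons) and more Slc17a7 (222 and 138 against 46.1 and 19.1 CPM). Of the 29 tested members, 12 were higher than in the mean of the subclasses, beside 22.0% of all genes, and 8 lower, beside 16.2%. The members' median was 0.07 against 0.03. The Unknown label is a cluster of these same nuclei, so the values are a description of that cluster.

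Cdh9 had the largest difference, at 542 and 511 CPM in Unknown (4.86 ± 0.15, adjusted p = 1.36e-16), above every subclass. Cdh8 had 518 and 417 CPM, also above every subclass (2.21 ± 0.13, adjusted p = 5.13e-12). A Cdh9 UMI was found in 64.0% and 85.9% of Unknown nuclei (thinned 67.5% and 56.9%), against 9.72% and 13.6% of annotated neurons and 2.66% and 4.11% of Micro-PVM nuclei. Cdh8 was found in 71.1% and 87.6% (thinned 70% and 63.1%), against 5.86% and 9.58% of Micro-PVM nuclei. Pcdh19 had 69.1 and 49.8 CPM (3.62 ± 0.35, adjusted p = 3.02e-08), and Cdh13 had 675 and 761 CPM, above all subclasses except Sst (2.37 ± 0.21, adjusted p = 4.11e-09).

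Pcdh8, a delta-2 protocadherin induced by activity, had 7.44 and 20.8 CPM in Unknown (3.64 ± 0.66, adjusted p = 0.000152), which is 40 UMIs in all, and its male value lay below the 15.1 CPM of male L6 IT nuclei. Cdh23, Cdh12 and Cdh22 differed by 1.73, 1.25 and 0.94 (adjusted p = 0.0081, 8.3e-07 and 0.00147). Pcdh17, Cdh2, Cdh18 and Cdh11, the rest of the 12, differed by 0.87, 0.74, 0.58 and 0.51. None of these 4 was highest in Unknown apart from the other labels. Pcdh20, which had too few UMIs to be tested, had 34 UMIs in Unknown against 15 in all annotated neurons. It was singled out after its values were seen.

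The largest decrease in Unknown nuclei was in Cdh19, with 1 UMI against 285 in the subclasses, 42.4-fold lower (counting interval 7.54 to 1679, adjusted p = 0.000317). Cdh20, highest in Vip, had 28.7 and 25.2 CPM in Unknown (-3.24 ± 0.25, adjusted p = 2.91e-10), below every subclass. Its share of nuclei with a UMI, 9.33% and 14.7%, was close to the 5.44% and 8.30% of Micro-PVM nuclei, and after thinning the shares were 5.62% and 5.00% against 5.67% and 5.33%. Pcdh15, Cdh4 and Pcdh10 differed by -2.54, -2.33 and -2.15 (adjusted p = 2.67e-06, 1.91e-07 and 3.53e-05). Cdh6, Pcdh11x and Pcdh7 differed by -2.40, -1.35 and -0.53 (adjusted p = 0.0053, 0.00199 and 0.00459). Free-RNA subtraction kept 6 higher (Cdh9, Cdh8, Cdh13, Cdh22, Pcdh8 and Pcdh19) and 4 lower (Cdh20, Cdh4, Pcdh10 and Pcdh15). Sized on the 6 named markers it kept all but Cdh19 and Cdh6.

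The promoters of genes with opposite levels in Unknown nuclei, Cdh9 and Cdh8 against Cdh20, are shown from RefSeq (GRCm38.p6, 250 bases before to 50 after the start, 5′ to 3′ on the gene's strand) because these genes had large differences there. Capitals mark TGACG or its reverse complement CGTCA, the shorter core of the cyclic AMP response element that ATF and CREB factors bind.
Cdh9, chr15:16728665-16728964, plus strand: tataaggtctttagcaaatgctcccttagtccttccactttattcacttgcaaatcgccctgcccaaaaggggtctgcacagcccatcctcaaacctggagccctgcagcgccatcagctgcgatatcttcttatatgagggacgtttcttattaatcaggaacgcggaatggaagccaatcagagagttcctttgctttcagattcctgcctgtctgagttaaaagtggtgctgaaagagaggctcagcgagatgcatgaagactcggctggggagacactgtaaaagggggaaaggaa
Cdh8, chr8:99416422-99416721, minus strand: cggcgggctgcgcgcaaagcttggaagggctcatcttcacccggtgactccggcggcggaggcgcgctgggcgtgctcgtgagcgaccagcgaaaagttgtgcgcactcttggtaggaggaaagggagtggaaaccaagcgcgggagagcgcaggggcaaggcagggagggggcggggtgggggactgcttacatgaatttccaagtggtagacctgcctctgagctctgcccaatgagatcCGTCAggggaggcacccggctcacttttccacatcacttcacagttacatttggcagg
Cdh20, chr1:104768270-104768569, plus strand: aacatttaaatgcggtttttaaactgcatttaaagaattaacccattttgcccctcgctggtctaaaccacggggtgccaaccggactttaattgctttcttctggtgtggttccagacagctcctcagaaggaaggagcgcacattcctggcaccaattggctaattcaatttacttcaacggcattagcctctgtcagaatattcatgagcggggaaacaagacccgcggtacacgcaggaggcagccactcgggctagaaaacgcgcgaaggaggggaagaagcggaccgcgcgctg
Both strands of 25 such promoters of 22 member genes were searched, and those of the other members were not used here. TGACG was found in 3 genes, Cdh8, Pcdh10 and Pcdh9, beside 20.8% of 32851 promoters in the table. The full element TGACGTCA, which contains TGACG, and the AP-1 element TGACTCA were found in none of the 22 genes, beside 1.79% and 5.20% of all promoters. A match is a string of letters and was not tested for binding.

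The type II genes lie in runs whose members had different leading labels. Cdh6, Cdh9, Cdh10, Cdh12 and Cdh18 lie within 10.4 Mb of chromosome 15 (13028701 to 23474418), and Cdh20, Cdh7 and Cdh19 within 6.21 Mb of chromosome 1 (104768529 to 110977584). On chromosome 15, Cdh6, Cdh10 and Cdh12 shared L4/5 IT as highest label, Cdh9 was highest in Unknown and Cdh18 in L6 CT. On chromosome 1, Cdh20 led in Vip, Cdh7 in Sst, and Cdh19 in Vip in the male and in Sst in the female library. Cdh8, Cdh11 and Cdh5, the cadherin of blood vessels, lie within 5.12 Mb of chromosome 8, and Cdh5 had 4 UMIs in annotated neurons.

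Annotated neurons were compared with Micro-PVM nuclei to see which members stood above the other large class of sorted nuclei. Here 55 members were tested: 37 were higher in neurons, beside 31.4% of all genes, and 2 were lower, beside 29.8%. The members' median was 2.01 against -0.02, and it is the same with genes at 0 in Micro-PVM placed at their lower bound. Both the 37 and this median include 2 alpha and 9 beta clustered genes. Those passed the filter on low counts only through the neuronal sums, where they were high, so they add no support. After free-RNA subtraction 22 were higher and 1 lower with the planned list, and 33 and 2 with the 6 named markers. All 11 type II, both type I, 4 of 4 delta-1 and 4 of 4 delta-2 members were higher, and so were Pcdh15 and Cdh13. For the type II genes the Micro-PVM level was 8.67% to 37.1% of the neuronal level in the male and 8.72% to 51.1% in the female library. The neuronal markers Snap25, Syt1 and Rbfox3 were at 15.8%, 17.4% and 13.0% of their neuronal level in male Micro-PVM nuclei and at 12.1%, 16.5% and 13.3% in female ones.

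Of single genes, Cdh22 had 74.0 and 50.02 CPM in neurons against 6.42 and 4.60 CPM in Micro-PVM (3.63 ± 0.26, adjusted p = 9.31e-06), and Cdh4 had 99.96 and 86.6 CPM against 9.62 and 7.46 CPM (3.58 ± 0.19, adjusted p = 3e-06). Cdh23 was the 1 well-counted member that went the other way, with 13.9 and 6.87 CPM in neurons against 68.6 and 38.2 CPM in Micro-PVM (-2.25 ± 0.34, adjusted p = 0.000596). Every Micro-PVM value of Cdh23 lay above the highest neuronal label, Pvalb at 34.7 and 12.9 CPM. The other lower member was Pcdhga1, with 17 UMIs in neurons and 36 in Micro-PVM (-1.88 ± 0.54, adjusted p = 0.017), which is below the 20 UMIs asked of a named gene and was singled out after its values were seen.

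The sums of the clustered protocadherins differed by cluster in this comparison. In neurons the alpha, beta and gamma genes summed to 15.2, 35.4 and 76.6 CPM in the male and 27.0, 48.5 and 107 CPM in the female library. In Micro-PVM nuclei the sums were 0.802, 4.81 and 74.6 CPM and 1.37, 4.72 and 86.3 CPM. The alpha sum of Micro-PVM nuclei was thus 5.28% and 5.07% of the neuronal sum, the beta sum 13.6% and 9.73%, and the gamma sum 97.4% and 80.3%. The alpha percentages lay below those of the neuronal markers above, the beta percentages below or among them, and the gamma percentages above them. In RNA outside called nuclei (barcodes with 1 to 100 UMIs) the alpha, beta and gamma sums were 8.28, 22.8 and 80.8 CPM and 10.9, 20.7 and 89.2 CPM.

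**Figure D4:**
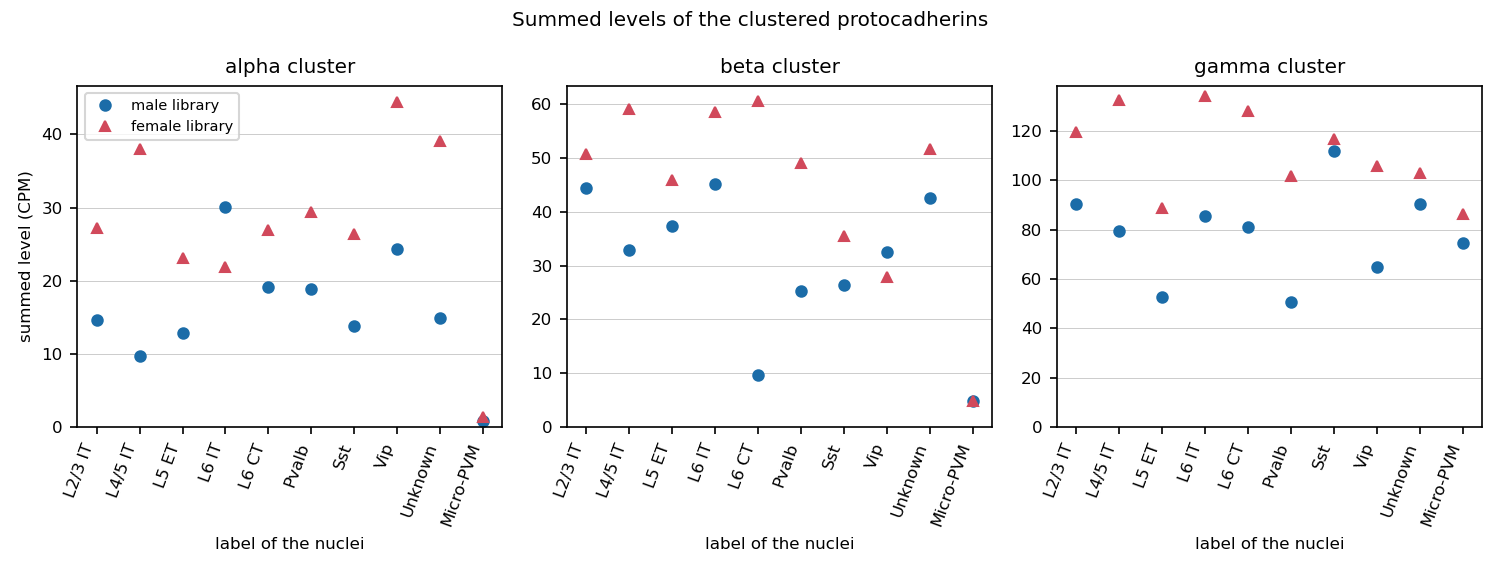
Summed CPM of the alpha, beta and gamma clustered protocadherins (linear axes from 0) in each label, male library as circles and female library as triangles. Alpha and beta sums are near 0 in Micro-PVM nuclei, whereas the gamma sums of Micro-PVM (74.6 and 86.3 CPM) lie among those of the neuronal labels.

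By gene, the tested alpha (2) and beta (9) members were all called higher in neurons. Genes with so few UMIs passed the filter on low counts only through the sums where they were high, so these counts support nothing about the clusters. Of 20 gamma members 3 were called higher and 1 lower. Pcdha11 (ENSMUSG00000102206), with 103 UMIs in neurons and 3 in Micro-PVM, was 20.5-fold higher (counting interval 6.83 to 101.2, adjusted p = 0.000503), and Pcdha12, with 52 and 2 UMIs, was 15.6-fold higher (4.09 to 132, adjusted p = 0.00691). Pcdhb18 had 37 UMIs in neurons and none in Micro-PVM, at least 7.38-fold higher against a floor of 3 counts over both libraries (adjusted p = 0.00353). Pcdhb7 (37 against 1), Pcdhb20 (35 against 1) and Pcdhb16 (48 against 2) were 22.1, 20.9 and 14.4-fold higher, with adjusted p of 0.00433, 0.00443 and 0.00339. These genes are single exons or first exons of long transcripts, and the ratios of such small counts have wide intervals. Free-RNA subtraction with the planned list ended the calls of Pcdha12, Pcdhb16, Pcdhb20, Pcdhb21, Pcdhb22, Pcdhga12, Pcdhgb1 and Pcdhga1. With the 6 named markers it ended those of Pcdha12, Pcdhb7, Pcdhb18, Pcdhb20 and Pcdhgb1.

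The clustered genes with most UMIs in neurons were Pcdhb17 (139), Pcdhb14 (124) and Pcdhb19 (59) of the beta cluster, Pcdhga12 (227), Pcdhgc4 (146) and Pcdhga10 (139) of the gamma cluster, and both Pcdha11 entries and Pcdha12 of the alpha cluster. The second Pcdha11 entry, ENSMUSG00000007440, had 36. Pcdhb17 had 6.21 and 8.79 CPM in neurons against 9 UMIs in Micro-PVM (3.23 ± 0.51, adjusted p = 0.000844), and Pcdhb14 differed by 3.04 ± 0.44 (adjusted p = 0.000478). Of the gamma genes, Pcdhgc4, a C-type isoform that is needed for survival of interneurons, differed by 1.80 ± 0.38 (adjusted p = 0.00367), Pcdhga12 by 1.08 ± 0.26 (adjusted p = 0.00738) and Pcdhgb1 by 1.62 ± 0.59 (adjusted p = 0.0417). Pcdhga10, at 4.74 and 9.57 CPM in neurons, differed by 0.24 ± 0.47 (adjusted p = 0.685), a value within its error. The gamma genes share their last exons, all clustered genes lie wholly or nearly wholly within other genes of the same strand, and a UMI there cannot be assigned to 1 gene with certainty.

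Single nuclei showed few clustered genes each. A UMI of any clustered protocadherin was found in 37.7% of male (35.2 to 40.4) and 67.9% of female (65.2 to 70.5) annotated neurons, against 10.7% and 22.4% of Micro-PVM nuclei. Thinned to 2300 UMIs, the shares were 25.8% and 35.9% in neurons and 14.4% and 17.0% in Micro-PVM nuclei. At least 2 different clustered genes were found in 11.6% and 41.5% of neurons, and the most in a nucleus was 6 and 15. With both L2/3 IT labels merged and Unknown counted, the thinned share ran from 14.2% (male Pvalb) to 46.2% (female Vip) over the 9 neuronal labels. In 9 of 9 labels it was higher in the female library. Taken apart, L2/3 IT CTX-2 was at 24% and 50%, on 25 and 34 nuclei. The random use of promoters in single neurons could not be read at this depth.

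The L2/3 IT CTX-2 nuclei (77 in each library) were set against L2/3 IT CTX-1 nuclei (360 and 252). Of 28 tested members, 0 were called higher and 0 lower by edgeR's quasi-likelihood test, beside 0.258% and 0.0827% of all genes. After free-RNA subtraction the counts were 0 and 0 with either marker list. At an unadjusted p under 0.05, 6 members and 875 of 9673 genes passed. With the library as a replicate block 1 member was higher, Pcdh15, and 1 lower, Cdh22, and DESeq2 called 1 higher, Pcdh15. Pcdh15 had 617 and 918 CPM in CTX-2 against 237 and 239 CPM in CTX-1 (1.64 ± 0.38, adjusted p = 0.0602), and the labels did not overlap. Cdh22 had 98.2 and 54.7 CPM against 168 and 132 CPM (-1.08 ± 0.29, adjusted p = 0.147). CTX-2 nuclei were shallow, with medians of 1506 and 1921 UMIs, and held 76.4 and 137 CPM of the 6 microglial markers against 74.0 and 31.3 CPM in CTX-1, whose part in these differences was not tested.

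Partners and relatives of the members were taken from lists by their known roles. Of 10 tested catenins and adaptors, 8 differed among subclasses, as did 8 of 11 other genes of the cadherin superfamily, while of 10 regulators of the clustered promoters 1 differed, Ctcf (adjusted p = 0.0332). Of all genes tested, 36.7% differed among subclasses. In L5 ET against L2/3 IT, 2 of 10 catenins and adaptors were higher and 0 lower, beside 6.28% and 6.73% of all genes. Ctnna2, the neuronal alpha-catenin, had 2237 and 1843 CPM against 1236 and 945 CPM (0.94 ± 0.19, adjusted p = 0.00108). Of 11 superfamily genes 1 was higher and 3 lower. Ret, a receptor tyrosine kinase with cadherin repeats, had 123 and 178 CPM against 81.8 and 55.3 CPM (1.22 ± 0.25, adjusted p = 0.00146), and the giant cadherins Fat1 and Fat4 and the calsyntenin Clstn2 differed by -2.20, -1.39 and -1.10 (adjusted p = 0.000223, 0.00383 and 0.000503).

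In inhibitory nuclei 2 of 10 catenins and adaptors were higher and 2 lower, and 2 of 11 superfamily genes were higher and 2 lower. Of all genes 10.7% were higher and 11.9% lower. Fat1 differed by -3.82 ± 0.59 (adjusted p = 5e-05), Dchs1, a partner of Fat4, by 2.62 ± 0.44 (adjusted p = 0.000102), and Ctnna1, Fat3 and Jup by -1.55, -1.23 and -1.21 (adjusted p = 0.00344, 5.45e-07 and 0.000859). Between Pvalb and Sst, 3 of 10 catenins and adaptors and 3 of 11 superfamily genes differed, beside 7.37% of all genes. Fat1 and Fat3 differed by -2.36 and -1.81, Vcl, which ties catenins to actin, by -1.52, and Ctnna3 and Ctnna2 by 1.23 and 0.98 (highest adjusted p of the 5 = 0.0119).

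In Unknown nuclei 6 genes of the superfamily were higher and 3 lower of 11 tested, and 2 catenins higher and 3 lower of 10. Of all genes 22.0% were higher and 16.2% lower. Clstn2, a calsyntenin of the postsynaptic membrane, had 1324 and 1544 CPM in Unknown against 395 and 366 CPM in annotated neurons (1.93 ± 0.13, adjusted p = 2.62e-11). Dchs2 had 17.0 CPM in both libraries against 2.29 and 1.74 CPM (3.68 ± 0.52, adjusted p = 6.39e-06), and Fat4, a binding partner of the dachsous cadherins, 58.5 and 60.5 CPM against 18.0 and 18.1 CPM (2.33 ± 0.24, adjusted p = 4.8e-08). Ret had 7.44 and 3.15 CPM against 96.0 and 118 CPM (-4.08 ± 0.38, adjusted p = 8.05e-09), and Dchs1 differed by -2.40 ± 0.78 (adjusted p = 0.0178). These values did not overlap between Unknown and the pooled annotated neurons where levels are given, which adds nothing to the calls.

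Against Micro-PVM nuclei, neurons held more of 8 and less of 2 of 11 catenins and adaptors, and more of 10 and less of 1 of 12 superfamily genes. Of all genes 31.4% were higher in neurons and 29.8% lower. Ctnna2 had 1751 and 1491 CPM against 213 and 170.4 CPM (3.20 ± 0.17, adjusted p = 3.08e-06), and Ret, Clstn3 and Dchs1 differed by 3.46, 3.41 and 3.23 (adjusted p = 2.62e-05, 2.18e-05 and 0.000222). The regulators of the clustered genes went the other way, with 0 higher and 10 lower of 11 in neurons. Dnmt3b, a DNA methyltransferase that acts on clustered promoters, had 0.817 and 0.609 CPM in neurons against 8.02 and 7.34 CPM (-3.33 ± 0.41, adjusted p = 0.000208), and Ctcf, which loops those promoters to their enhancers, had 69.6 and 71.2 CPM against 123 and 119 CPM (-0.67 ± 0.16, adjusted p = 0.0071). No list was tested as a set.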

How the data were processed

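Single-nucleus RNA counts were deposited by the authors as UMIs per gene and barcode, made with Cell Ranger on a mouse GRCm38 (mm10) reference that includes introns. Its version differs between sources (3.1.0 in the submitters' processing notes). The authors clustered nuclei with Seurat after SCTransform and mapped them to a motor cortex atlas. Their metadata gave the labels and the deposited percent of mitochondrial counts per nucleus. The methods state limits of 6000 genes and 5 percent, which were run as an alternative. The normalized matrix was not used.

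Here raw counts were summed per library and label (labels of at least 50 nuclei, 18 sums of neuronal subclasses and Unknown) and fitted with edgeR 4.0.16 (TMM, filterByExpr, quasi-likelihood test, Benjamini-Hochberg adjustment over all genes), in R 4.3.3 with limma 3.58.1. DESeq2 1.42.0, other scalings, no filter, a library block and free-RNA subtraction were alternatives. Doublets were not called here. Some marker genes are not reported here. Rows of the reporter construct, 0.00048% and 0.0008% of called UMIs, were left out. Intervals are exact binomial at 95%. The libraries pair the sums, since each is a single pool of animals: deviations of labels within a library correlated at 0.0218 to 0.436 (36 pairs, median 0.151). Genes named had at least 20 UMIs in neurons and were, in each comparison, up to 8 called per direction with the same sign in both libraries, or the 3 with most UMIs in a structural group, or up to 5 called genes of the associated lists. The members and lists were chosen with earlier results of these data known. The fits were tested on simulated data. Figures and summaries used Python 3.11.15, pandas 2.3.3, scipy 1.17.1 and matplotlib 3.10.9.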

Additional observations from a re-analysis of the deposited data

Results flagged for a closer look

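Members in 2 non-neuronal labels that no comparison used stood above every neuronal label and Micro-PVM nuclei. The difference was not tested, and the labels hold few nuclei (Astro 53 and 62, Oligo 26 and 42). In Astro nuclei, which held the astrocyte markers Aqp4 at 458 and 498 CPM and Slc1a3 at 4901 and 3281 CPM, Cdh19 had a mean of 369.2 CPM (365 and 373), against at most 56.8 CPM elsewhere. Cdh10 had a mean of 514.9 CPM there (569 and 461; at most 246 elsewhere), Cdh2 671.4 CPM (668 and 674; at most 564) and Pcdh7 1199 CPM (1244 and 1155; at most 965). In Oligo nuclei, which held Mbp at 3513 and 3222 CPM, Pcdh9 had a mean of 9077 CPM (9153 and 9001; at most 5580 elsewhere).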

How the results depend on the processing

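No call reversed. Of 710 values with a test for the named genes, 601 kept their direction and side of the threshold and 109 lost the call, 41 of them when free RNA was subtracted by the planned list of microglial markers. That subtraction left 10 members called among subclasses, 0 higher and 0 lower in L5 ET, 1 and 0 in inhibitory nuclei, 1 and 1 in Pvalb, 6 and 4 in Unknown, and 22 and 1 in neurons against Micro-PVM. Sized on the 6 named markers (chosen after seeing the data), 5 members were higher in inhibitory nuclei and 1 in Pvalb. DESeq2 gave 5 lower in L5 ET, 1 higher in Pvalb, 1 lower against Micro-PVM and 1 higher in CTX-2. Library totals gave 1 higher in Pvalb, no filter 1 higher in Pvalb and 1 in CTX-2, and RLE size factors 1 higher in CTX-2. Totals also moved the all-gene split for Unknown from 2133 higher and 1575 lower to 1692 and 1877, with the median of all genes going from 0.03 to -0.11. The replicate block (library) gave 1 higher and 1 lower in CTX-2 and ended no member's call. It added Pcdh1 and Pcdh8 among subclasses, Cdh4 in L5 ET, Cdh8 and Cdh10 in inhibitory nuclei, Cdh12 and Pcdh11x in Pvalb, and Pcdhgc3 and Pcdhgc5 against Micro-PVM. Without replicate 1 or 2 in the labels compared (fits chosen after seeing the data), the counts were 2 to 3 higher and 3 to 3 lower in L5 ET, 5 to 5 and 4 to 6 in inhibitory nuclei, 1 to 1 and 4 to 8 in Pvalb, and 1 to 2 lower against Micro-PVM. The cause was not tested. Thinning moved the mean share of neurons with a clustered protocadherin UMI from 52.8% to 30.9% (single libraries unthinned 37.7% to 67.9%). The fewest UMIs were summed in Vip (123248 and 179978), and low counts limit the clustered genes throughout.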
